A study of Tetranychus cinnabarinus with 8 samples.

Results

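Calmodulin (tetur04g01900), a phospholipase C family member (tetur05g03410) and phospholipase A2 (tetur05g07400) are the 3 genes named in the study for calcium and phospholipid signalling, out of 15764 gene models listed in at least 1 library. The study took calmodulin and the phospholipase C family member from its list of genes differing at 48 h, and phospholipase A2 from its list for 24 h, so their values in those comparisons describe genes already picked on the same libraries and are not independent evidence. Comparisons between the times, and those over both times, reuse these libraries, so they are not independent of that choice either. RNA-Seq was run on female adults of a susceptible strain of Tetranychus cinnabarinus, the carmine spider mite, labelled as 2-day old adults and kept on cowpea. The groups were mites 24 h after a spray with curcumin at 2.64 mg/mL, mites 24 h after the solvent, mites 48 h after curcumin and mites 48 h after the solvent, with 2 libraries each. Curcumin is a compound of turmeric with acaricidal activity, the dose was the median lethal concentration, and the solvent was water with Tween 80 and acetone, which every group received. Each library came from a separate pool of whole live mites, so the libraries hold the survivors at each time. The estimated reads on gene models came to between 8033325 and 8617973 per library. In pooled whole mites, fewer cells of a type and less RNA per cell cannot be told apart. Vitellogenin 1 (tetur39g00730), a yolk protein precursor of egg-laying females, was listed in all 8 libraries, in RPKM (mapped reads scaled to the length of the gene model and to the depth of the library). It had 6.21 and 9.66 RPKM with curcumin at 24 h, against 2.02 and 1.59 with solvent, and 2.69 and 2.69 with curcumin at 48 h, against 23.9 and 10.9 with solvent. This yolk gene was thus higher in curcumin-treated mites at 24 h and lower at 48 h, without overlap at either time, and its part in the values of the 3 genes was not tested. By RPKM it lay above 26.6% of the listed genes in replicate 2 of solvent at 24 h, its lowest library. In replicate 1 of solvent at 48 h, its highest library, it lay above 78.1% of them.

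Calcium ions carry signals inside cells, and calmodulin is the small protein that binds them and then switches on many enzymes and channels. Phospholipase C enzymes cut a phosphoinositide of the membrane into diacylglycerol and an inositol phosphate, and this inositol phosphate opens calcium channels of the endoplasmic reticulum. Phospholipase A2 enzymes release a fatty acid, such as arachidonic acid, from membrane phospholipids, and some of them need calcium. In animals these proteins act in nerve and muscle, in secretion and in the response of many cell types to hormones.

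All 3 genes are short gene models of the T. urticae genome, the two-spotted spider mite, to which the reads were mapped. The lengths are 315 bp for calmodulin, 330 bp for the phospholipase C family member and 243 bp for phospholipase A2, against a median of 1191 bp over all listed gene models. They can hold at most 105, 110 and 81 codons, and calmodulins and phospholipase C enzymes of other animals are longer than this. All are longer than the shortest gene model listed in any of the libraries. Of the 1816 listed gene models of 330 bp or less, 56.7% were listed in all 8 libraries, against 84.0% of all gene models. A value of 0 in some library was thus common at this length, though this share takes in gene models of every level. Calmodulin and phospholipase A2 were each listed in 6 libraries and the phospholipase C family member in all 8. No other gene model had the same estimated reads as any of these genes in every library. The estimated reads are almost never whole numbers, and the cause was not tested. Whether reads of the 3 genes were shared with other gene models is not known.

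For phospholipase A2 the study also designed a primer pair for quantitative PCR, shown here because this lowly expressed gene was measured by a second method. By that method the study reported it as higher with curcumin, by a smaller fold than in its RNA-Seq. The product is 168 bp, or 69.1% of the length of the gene model, and both primers are 20 bases long, 10 of them G or C. Whether the product lies within the gene model was not checked. They are written 5′ to 3′.
q05g07400-F: gaagaaactggcgcagaaag
q05g07400-R: ggttggtgagcagggaatta

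Calmodulin had the widest gap between replicates of these genes, in curcumin at 24 h. Its RPKM was 0 and 21.4 in curcumin-treated mites at 24 h, against 12.05 and 3.27 in solvent-treated mites. At 48 h its RPKM was 14.5 and 3.55 in curcumin-treated mites, against 0.144 and 0 in solvent-treated mites. The treatments overlapped at 24 h, where a library at 0 and the highest of the 8 libraries were replicates of curcumin, and at 48 h both curcumin libraries were above both solvent libraries. The estimated reads at 24 h were 0 and 77.9 with curcumin, against 46.0 and 12.7 with solvent. The estimated reads at 48 h were 54.1 and 13.6 with curcumin, against 0.506 and 0 with solvent. A count of 0 allows up to 3 reads, which covers counting error only, so the difference between 0 and 77.9 reads within curcumin at 24 h is beyond counting error.

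**Figure D1:**
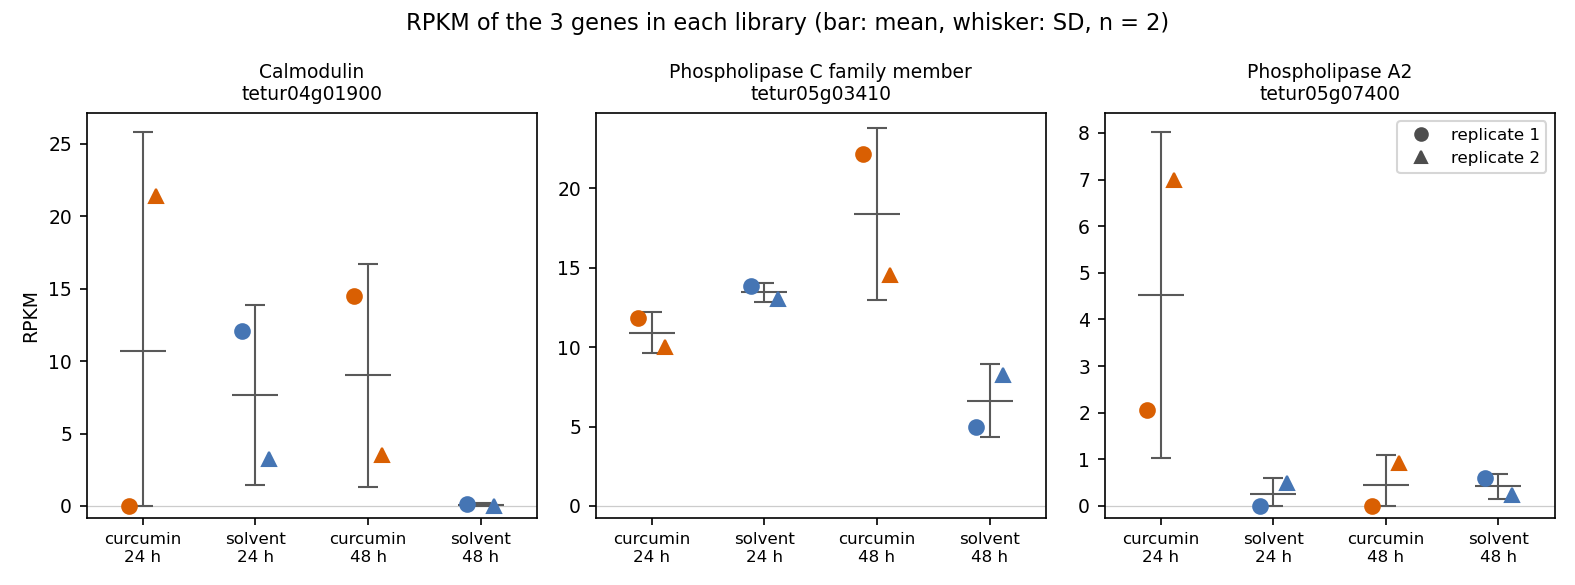
RPKM (y axis) of each of the 3 genes in the 4 groups (x axis), with circles for replicate 1, triangles for replicate 2, a horizontal bar for the mean and whiskers for the SD (n = 2), which end at 0 where they would pass below it. Calmodulin runs between 0 and 21.4 within curcumin at 24 h, the phospholipase C family member has no overlap between any of its groups, and phospholipase A2 is above 1 RPKM in the curcumin libraries at 24 h only.

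By group, calmodulin averaged 10.7 ± 15.1 RPKM in curcumin-treated mites at 24 h, against 7.66 ± 6.21 RPKM in solvent-treated mites (SD, n = 2 each). At 48 h it averaged 9.01 ± 7.72 RPKM in curcumin-treated mites, against 0.0721 ± 0.102 RPKM in solvent-treated mites (SD, n = 2 each). From high to low the order of the group means was curcumin at 24 h, curcumin at 48 h, solvent at 24 h and solvent at 48 h. The ranges of the first 3 of these groups overlapped, while solvent at 48 h, with 0.506 estimated reads in its libraries together, lay below curcumin at 48 h and solvent at 24 h and within the range of curcumin at 24 h. A group with less than 1 estimated read in all was set to the floor of 3 reads, which gives a bound, and a group with between 1 and 3 reads gives a ratio with its counting interval. Against that floor, calmodulin was 21.5-fold higher in curcumin-treated mites than in solvent-treated mites at 48 h. This value was 8.48-fold without replicate 1 and 35.1-fold without replicate 2 of curcumin at 48 h. It was 10.8-fold and 10.7-fold without replicate 1 and replicate 2 of solvent at 48 h. In the same way calmodulin was 18.6-fold lower in solvent-treated mites at 48 h than in solvent-treated mites at 24 h. This value was 8.06-fold without replicate 1 and 29.0-fold without replicate 2 of solvent at 24 h. It was 9.29-fold and 9.28-fold without replicate 1 and replicate 2 of solvent at 48 h. Leaving out either solvent library at 48 h lowers both folds whatever its reads, since the floor of 3 reads then stands against 1 library. The values without a solvent library at 48 h thus do not measure the agreement of the solvent replicates.

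The quasi-likelihood test of edgeR, fitted on all 8 libraries and 12227 genes, gave a Benjamini-Hochberg adjusted p of 0.596 to calmodulin at 48 h, where the log2 fold change ± standard error was 5.73 ± 2.26. A fitted fold change of a gene with a group near 0 depends on the count that the fit adds, and is no bound. For 24 h the value was 0.48 ± 1.23 on the log2 scale, within a 95% interval from -2.31 to 3.27 (edgeR adjusted p = 0.946). Its direction at 24 h turned with single libraries and with the scale. It was -7.81 without replicate 2 of curcumin at 24 h, -0.16 without replicate 2 of solvent at 24 h and 1.67 without replicate 1 of solvent at 24 h, and limma on log2(RPKM + 1) gave -0.66. Between 48 h and 24 h the log2 fold change was -0.17 ± 1.22 in curcumin-treated mites (edgeR adjusted p = 0.972) and -5.43 ± 2.30 in solvent-treated mites (edgeR adjusted p = 0.489). The value in curcumin-treated mites became 8.13 without replicate 2 of curcumin at 24 h and 0.52 without replicate 2 of curcumin at 48 h.

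The phospholipase C family member was the most evenly measured of these genes and was listed in every library. Its RPKM was 11.8 and 10.0 in curcumin-treated mites at 24 h, against 13.9 and 13.0 in solvent-treated mites. At 48 h its RPKM was 22.2 and 14.5 in curcumin-treated mites, against 4.99 and 8.24 in solvent-treated mites. Both curcumin libraries were thus below both solvent libraries at 24 h and above both at 48 h. The order of the group means was curcumin at 48 h with 18.4 ± 5.40 RPKM, solvent at 24 h with 13.4 ± 0.618, curcumin at 24 h with 10.9 ± 1.28 and solvent at 48 h with 6.62 ± 2.30 (SD, n = 2 each). No neighbours in this order overlapped in RPKM, while the gap of curcumin at 24 h to solvent at 24 h was within counting error.

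The reads behind these values were 46.3 and 38.3 in curcumin-treated mites at 24 h, against 55.7 and 53.1 in solvent-treated mites. At 48 h they were 87.2 and 58.7 in curcumin-treated mites, against 18.4 and 31.5 in solvent-treated mites. On reads summed over the replicates and scaled to the depth, the level in curcumin-treated mites was 0.782 times that in solvent-treated mites at 24 h, with an exact 95% interval of counting error from 0.584 to 1.05. At 48 h it was 2.78 times, with an interval from 2.00 to 3.91. These intervals leave out the spread between replicates, so the call rests on the fit across all genes.

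**Figure D2:**
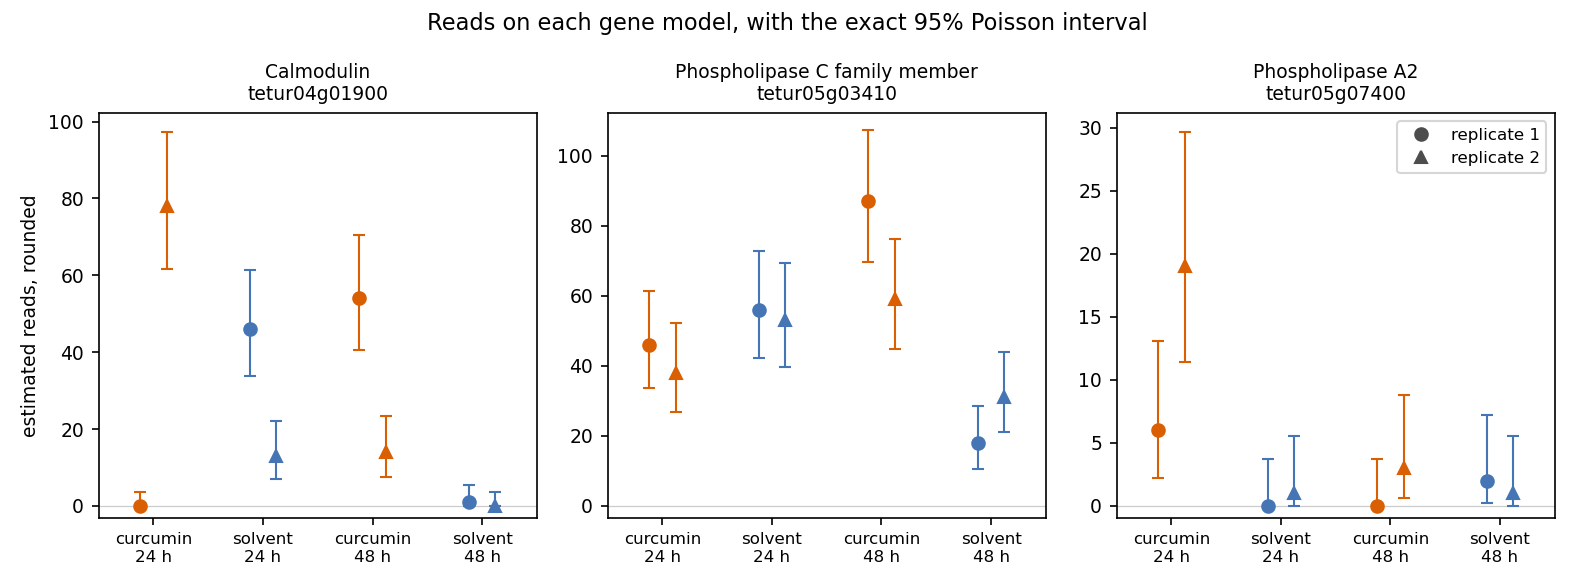
Estimated reads rounded to whole reads (y axis) for each of the 3 genes in the 4 groups (x axis), with circles for replicate 1, triangles for replicate 2 and whiskers for the exact 95% Poisson interval of each library. The intervals of the replicates overlap for the phospholipase C family member in every group, and for calmodulin they do not overlap in 3 of the 4 groups.

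In that fit the phospholipase C family member had -0.30 ± 0.32 on the log2 scale at 24 h, within a 95% interval from -1.01 to 0.41 (edgeR adjusted p = 0.861). The same value for 48 h was 1.51 ± 0.33, within an interval from 0.78 to 2.25 (edgeR adjusted p = 0.207). Between the times the changes differed by 1.81 ± 0.46 on the log2 scale, which by edgeR had an unadjusted p of 0.00293 but an adjusted p of 0.389. Over all 16 alternatives at 48 h the log2 fold change stayed between 1.15 and 1.87, with adjusted p-values from 0.124 (DESeq2) to 0.638 (without replicate 1 of curcumin at 48 h). With time, 48 h against 24 h, the log2 fold change was 0.81 ± 0.31 under curcumin (edgeR adjusted p = 0.323) and -1.0 ± 0.33 under solvent (edgeR adjusted p = 0.386). These comparisons with time use the same libraries as the comparisons of the treatments, and the low solvent level at 48 h enters both. Relative to 24 h, the libraries at 48 h were higher without overlap under curcumin and lower without overlap under solvent.

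Phospholipase A2 was the lowest of these genes. Its RPKM was 2.05 and 7.0 in curcumin-treated mites at 24 h, against 0 and 0.496 in solvent-treated mites. At 48 h its RPKM was 0 and 0.912 in curcumin-treated mites, against 0.604 and 0.234 in solvent-treated mites. The treatments did not overlap at 24 h and overlapped at 48 h. The curcumin libraries at 24 h stood above the other 6 libraries, which were all under 1 RPKM. In estimated reads, these were 5.79 and 19.3 in curcumin-treated mites at 24 h, against 0 and 1.46 in solvent-treated mites. At 48 h there were 2.65 reads over the curcumin libraries, against 2.25 over the solvent libraries, both under the floor of 3 reads. No fold of the summed reads is thus given, and the size of a difference that could have been detected was not tested.

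The mean RPKM of phospholipase A2 was 4.52 ± 3.5 in curcumin-treated mites at 24 h, against 0.248 ± 0.351 in solvent-treated mites (SD, n = 2 each). On summed reads its level was 17.2 times that in solvent-treated mites, a ratio that rests on 1.46 estimated solvent reads, with an exact 95% interval of counting error from 4.12 to 1032. Without replicate 1 of curcumin at 24 h the ratio was 26.8, with an interval from 6.15 to 1606, and without replicate 2 it was 7.87, with an interval from 1.45 to 549. Without replicate 1 of solvent at 24 h it was 8.60, with an interval from 2.05 to 515. Without replicate 2 of solvent at 24 h, where all the solvent reads stood, it was 4.22-fold against the floor of 3 reads. Within curcumin, the level at 48 h was 0.105 times that at 24 h, a ratio that rests on 2.65 estimated reads at 48 h, with an interval from 0.0231 to 0.392. The interval took in equal levels without replicate 2 of curcumin at 24 h, where the ratio was 0.231, with an interval from 0.0408 to 1.18. The ratio was 0.0678 without replicate 1 of curcumin at 24 h and 0.207 without replicate 1 of curcumin at 48 h. Without replicate 2 of curcumin at 48 h the level was 4.11-fold lower against the floor of 3 reads.

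Phospholipase A2 did not pass edgeR's filter on low counts, so its test values come from the fit without this filter, over 15676 genes. There it had 4.41 ± 1.30 on the log2 scale at 24 h, which by edgeR had an unadjusted p of 0.00838 and an adjusted p of 0.709. Within curcumin, 48 h against 24 h gave -2.96 ± 1.11 on the log2 scale (edgeR adjusted p = 0.384). This value was -3.57 and -1.91 without replicate 1 and replicate 2 of curcumin at 24 h, and -2.06 and -6.65 without replicate 1 and replicate 2 of curcumin at 48 h. Curcumin against solvent at 48 h gave -0.08 ± 1.44 on the log2 scale, within a 95% interval from -3.36 to 3.21 (edgeR adjusted p = 1.0). The direction at 48 h reversed without replicate 1 of curcumin at 48 h, at 0.83, and without replicate 1 of solvent at 48 h, at 0.53. The curcumin and solvent groups at 48 h held 2.65 and 2.25 estimated reads, under the floor of 3, so the sign was not resolved.

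Replicates of the same group agreed to very different degrees among these genes. Over all genes listed in a group, the median distance between replicates was between 0.22 and 0.30 on the scale of log2(RPKM + 0.1). For calmodulin this distance was 7.75 in curcumin at 24 h, and 0.0468% of the genes listed in that group were as far apart or farther. In the other groups it was 1.85 in solvent at 24 h, 2.00 in curcumin at 48 h and 1.29 in solvent at 48 h. Where calmodulin was listed in both replicates, the larger RPKM was 3.68 times the smaller in solvent at 24 h and 4.07 times in curcumin at 48 h. In curcumin at 24 h, 59 of 11970 genes with at least 10 estimated reads in some replicate had 0 in the other. Of 8125 genes with at least the 77.9 reads of calmodulin in some replicate, 5 did so, calmodulin included.

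The phospholipase C family member had distances of 0.24 and 0.09 in curcumin and solvent at 24 h, and of 0.61 and 0.71 in curcumin and solvent at 48 h. Its larger RPKM was between 1.07 and 1.65 times the smaller. The distances of phospholipase A2 lay between 1.08 and 3.34, with few reads behind them. The biological coefficient of variation that edgeR estimated for each gene was 0.963 for calmodulin, above that of 99.7% of the genes tested, 0.200 for the phospholipase C family member and 0.571 for phospholipase A2, against a common value of 0.142 in the filtered fit and 0.144 without the filter.

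**Figure D3:**
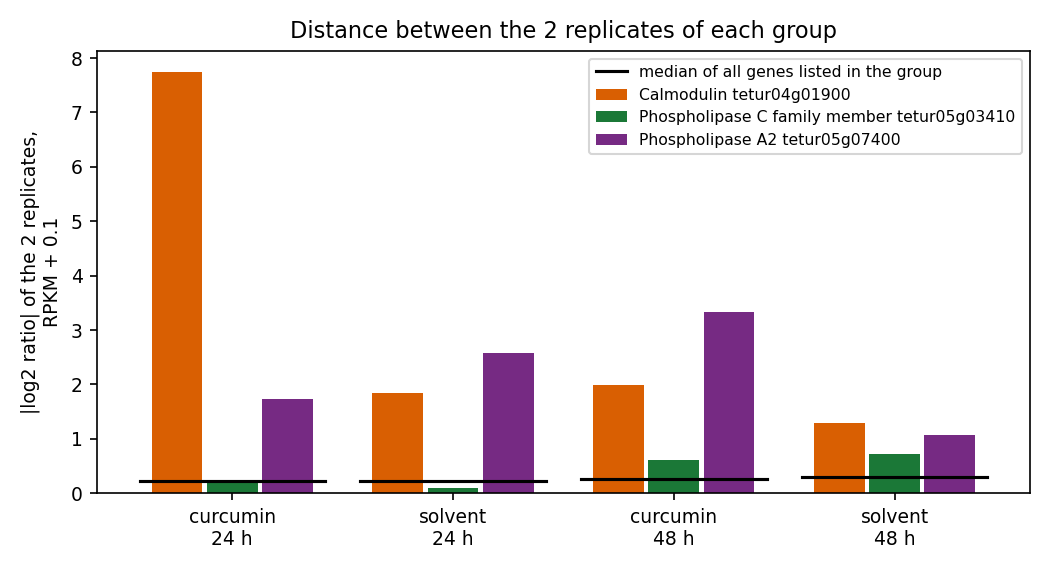
Distance between the 2 replicates of each group (x axis), as the absolute log2 ratio of RPKM + 0.1 (y axis, starting at 0), for the 3 genes, with a black line at the median of all genes listed in the group. Calmodulin reaches 7.75 in curcumin at 24 h, and the phospholipase C family member stays at 0.71 or less.

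At 24 h, the RPKM of curcumin-treated and solvent-treated mites did not overlap for 2 of the 3 genes, the phospholipase C family member being lower and phospholipase A2 higher, and over all listed genes this was so for 40.3%, with 21.8% lower and 18.5% higher. At 48 h it was so for 2 of the 3 genes, calmodulin and the phospholipase C family member, both higher in curcumin-treated mites, against 15.5% of all listed genes that were higher without overlap, 16.8% that were lower and 32.2% in either direction. For 48 h against 24 h in curcumin the phospholipase C family member was higher without overlap and phospholipase A2 lower, against 17.5% of all listed genes higher, 25.4% lower and 42.9% in either direction. In solvent, calmodulin and the phospholipase C family member were lower without overlap, against 24.1% of all listed genes lower, 14.9% higher and 38.9% in either direction. Over the 6 comparisons of each gene, edgeR called 0 of 18 results at an adjusted p under 0.05, and 10 of the 18 had an unadjusted p under 0.05. Of those 10, 3 belonged to calmodulin, 5 to the phospholipase C family member and 2 to phospholipase A2. DESeq2 called 0 of the 10 results for which it gave an adjusted p, and 6 of 18 had an unadjusted p under 0.05. The 6 comparisons of a gene all come from the means of the same 4 groups, so the 18 results are not independent. The same deviation of a picked gene can enter several of them, so these counts are a description only.

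Over all genes of the filtered fit, the share called by edgeR at an adjusted p under 0.05 was 0% at 24 h and 0.18% at 48 h for curcumin against solvent. It was 0% for the difference between the times, 0.0491% for the average of both times, 0.425% for 48 h against 24 h in curcumin and 0.188% in solvent. In the fit without the filter, which gave the values of phospholipase A2, the share was 0% at 24 h, 0.0638% at 48 h, 0% for the difference, 0.0319% for the average, 0.14% for time in curcumin and 0.0829% in solvent. At an unadjusted p under 0.05, curcumin against solvent at 24 h took in phospholipase A2, beside 7.39% of all genes with the filter and 6.47% without it. At 48 h it took in calmodulin and the phospholipase C family member, beside 7.84% with the filter and 6.9% without it. The difference between the times took in the phospholipase C family member, beside 8.11% and 7.18%, and the average took in that gene and calmodulin, beside 7.05% and 6.15%. Time in curcumin took in both phospholipases, beside 12.8% and 10.9%, and time in solvent took in calmodulin and the phospholipase C family member, beside 10.1% and 8.47%. By the size of the fitted change at 48 h, calmodulin ranked 22 and the phospholipase C family member 110 among 12227 genes from the highest, and at 24 h phospholipase A2 ranked 34 among 15676. The study picked these genes from lists cut on the fold change in the same comparisons, so high ranks follow from that choice. The ranks of calmodulin and phospholipase A2 also depend on the count that the fit adds to a group near 0.

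**Figure D4:**
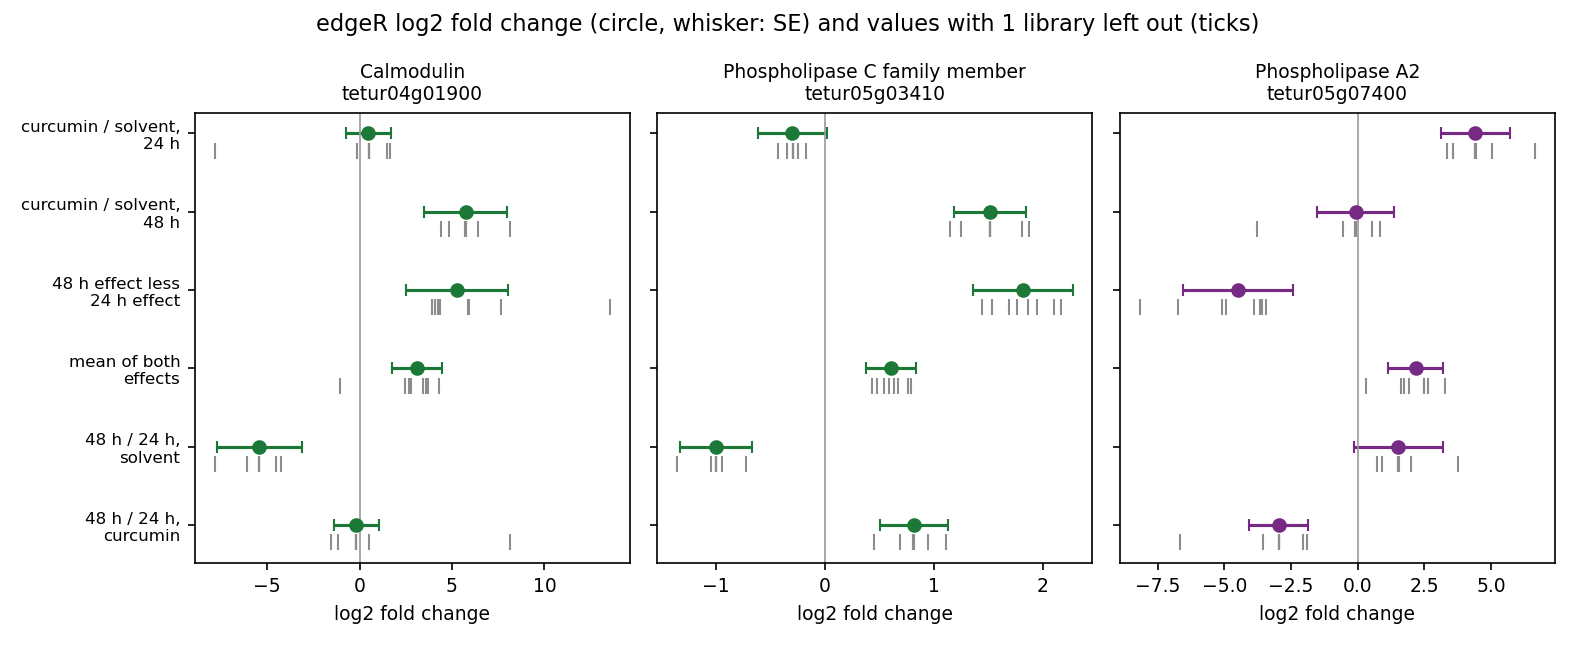
Log2 fold change (x axis, on a different range in each panel) of the 3 genes in 6 comparisons (y axis), as circles with the standard error as whiskers, from the filtered edgeR fit (green) or the fit without the filter (purple), with grey ticks for the values when 1 library is left out. The ticks of calmodulin run from -7.81 to 1.67 at 24 h, while those of the phospholipase C family member stay between 1.15 and 1.87 at 48 h.

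For the average of both times, with 4 curcumin and 4 solvent libraries, calmodulin had a log2 fold change of 3.11 ± 1.34 (edgeR adjusted p = 0.696). It turned to -1.04 without replicate 2 of curcumin at 24 h. The average was 0.61 ± 0.23 for the phospholipase C family member (edgeR adjusted p = 0.653) and 2.17 ± 1.04 for phospholipase A2 (edgeR adjusted p = 0.837). The average of phospholipase A2 was 0.31 without replicate 2 of curcumin at 48 h and 3.28 without replicate 2 of solvent at 24 h, the ends of its range with 1 library left out. Between the times the effects differed by 5.25 ± 2.76 for calmodulin (edgeR adjusted p = 0.67) and by -4.49 ± 2.08 for phospholipase A2 (edgeR adjusted p = 0.709), 48 h less 24 h. With 1 library left out, the difference of calmodulin ran from 3.9, without replicate 1 of curcumin at 48 h, to 13.55, without replicate 2 of curcumin at 24 h. That of phospholipase A2 ran from -8.18, without replicate 2 of curcumin at 48 h, to -3.43, without replicate 2 of curcumin at 24 h. The fitted difference of the curcumin effect was thus positive for calmodulin and the phospholipase C family member and negative for phospholipase A2, and 0 of them passed the adjusted threshold.

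The 3 genes did not share one pattern over the libraries. On log2(RPKM + 1), Pearson's r over the 8 libraries was 0.60 between calmodulin and the phospholipase C family member, 0.16 between calmodulin and phospholipase A2 and -0.23 between the phospholipases, given as a description since the libraries share groups and depth. Among 12191 other genes past the filters on counts and length, the most like calmodulin were tetur12g04320, tetur02g12090 and tetur35g00710, with r of 0.97, 0.95 and 0.95. The most like the phospholipase C family member were tetur04g02200, tetur16g00200 and tetur19g03060, with r of 0.97, 0.94 and 0.94. The most like phospholipase A2 were tetur30g00840, tetur06g03780 and tetur46g00010, with r of 0.98, 0.94 and 0.94. Between 13 and 22 genes had an r over 0.9 with each of them, the highest of so many over 8 libraries. The likeness is one of shape and not of size. The RPKM of tetur12g04320 was 35.9 and 43.2 in curcumin at 24 h, against 40.5 and 38.1 in solvent, and 42.7 and 37.8 in curcumin at 48 h, against 36.1 and 34.2 in solvent.

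Of the genes that the study lists beside these under calcium channel complex, the pathways of calcium and phosphatidylinositol signaling, and inositol phosphate, glycerophospholipid, ether lipid and arachidonic acid metabolism, 2 are other genes, and both were picked by the study on these libraries. By edgeR 0 of the 2 were past an adjusted p of 0.05 at 24 h or 48 h. The RPKM of tetur23g01300, listed with phospholipase A2 under glycerophospholipid metabolism, was 19.0 and 15.4 in curcumin-treated mites at 24 h, against 4.52 and 2.87 in solvent-treated mites. Its treatments did not overlap at this time, with 2.23 ± 0.69 on the log2 scale (edgeR adjusted p = 0.578). At 48 h its RPKM was 21.6 and 7.86 in curcumin-treated mites, against 16.3 and 3.64 in solvent-treated mites, which overlapped. The other gene, tetur02g00040, listed with calmodulin under calcium channel complex, was at 0 in all 4 curcumin libraries, while solvent gave 14.0 and 11.8 estimated reads at 24 h and 30.6 and 22.3 at 48 h. Its edgeR adjusted p was 0.373 at 24 h and 0.0549 at 48 h.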

How the data were processed

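By the paper's methods, the authors filtered single-end Ion Proton reads, aligned them with T-Map to the genome of T. urticae and listed the gene models of each library. The authors deposited an estimated count of reads per gene model, not scaled for depth, and the RPKM, which they normalized for length and mapped reads. The tool behind the estimated count, the gene model version and any use of strand were not given in the sources used here, so reads of an antisense gene cannot be told apart. Lists hold only gene models above 0, and an absent one counted as 0. Estimated counts were rounded. The robust quasi-likelihood test of edgeR 4.0.16 (R 4.3.3) was fitted to 4 groups and 8 libraries after filterByExpr and TMM scaling, with Benjamini-Hochberg adjustment over 12227 genes, and fitted without the filter for phospholipase A2 (15676 genes). Results were called at an adjusted p under 0.05. Standard errors came from edgeR's F statistic and 95% intervals from its degrees of freedom. Intervals of reads are exact Poisson intervals, and those of ratios exact binomial ones, and they cover counting error only. The floor of 3 reads is a set value and no limit of these intervals.

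The alternatives were DESeq2 1.42.0, library size scaling, no filter, the replicate number as a block, the 4 libraries of a time point, limma 3.58.1 on log2(RPKM + 1) and log2(RPKM + 0.1) from a mean RPKM of 0.5 up, no RPKM filter, CPM in place of RPKM for the levels, and each library left out. The filtered edgeR fit, DESeq2 and limma on log2(RPKM + 1) were tried on simulated counts, for curcumin against solvent at 24 h only. Those counts were drawn at the common coefficient of variation, which is below that of each of the 3 genes. The other fits and comparisons were not tried in this way. Figures were drawn with Python 3.11.15. The labels name separate samples, which the methods call biological replicates. The genes, lists and tests were chosen with earlier results of these data known. The named genes are the 3 members, the 3 genes most like each over the 8 libraries by Pearson's r among genes past the filters on counts and length, the genes listed beside them in the supplement under 7 terms, and vitellogenin 1. The reads, the quantitative PCR, the genome and other calcium genes, for which no annotation was used, are not analysed here.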

Additional observations from a re-analysis of the deposited data

Results flagged for a closer look

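The phospholipase C family member tetur05g03410 had fitted curcumin effects of opposite sign at the 2 times, with both curcumin libraries below both solvent libraries at 24 h and above both at 48 h. The change at 24 h was within counting error, at 0.782 times the solvent level on summed reads with an interval from 0.584 to 1.05, and its fitted log2 interval ran from -1.01 to 0.41. The log2 fold change at 48 h less that at 24 h was 1.81. The difference was tested as an interaction by edgeR and did not pass (adjusted p = 0.389, unadjusted p = 0.00293). At 24 h, 40.3% of all listed genes had treatments that did not overlap either way, and at 48 h 32.2%. Of 15057 genes listed at both times, 3.67% were lower with curcumin at 24 h and higher at 48 h without overlap at either time, and 3.96% had the reverse pattern. The cause was not tested.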

How the results depend on the processing

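None of the 18 gene results passed an adjusted p of 0.05 under any of the 270 combinations of result and alternative, with a lowest adjusted p of 0.124. In 257 of them the direction was kept and in 13 it reversed, of which 11 were of calmodulin and 2 of phospholipase A2. For calmodulin at 24 h the log2 fold change was -0.66 by limma on log2(RPKM + 1), with or without the filter on RPKM, and -2.13 on log2(RPKM + 0.1), and with 1 library left out it ran from -7.81 to 1.67. Its average over both times ran from -1.04 to 4.32 with 1 library left out. For 48 h against 24 h in curcumin calmodulin had 0.83 by limma on log2(RPKM + 1), with or without the filter, and 2.32 on log2(RPKM + 0.1), and ran from -1.52 to 8.13 with 1 library left out. Phospholipase A2 at 48 h ran from -3.78 to 0.83. The cause was not tested. Levels as a percent of the gene's mean moved by less than the spread between replicates with CPM in place of RPKM.

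With the replicate number as a block the lowest adjusted p of these genes was 0.186, no call changed, and the genes called in all were 0 at 24 h and 19 at 48 h. Deviations of equal replicate numbers had r between -0.07 and 0.15 across genes in the 6 pairs of groups, so the numbers were not taken as pairs.

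The count of all genes called at 24 h was 0, against 39 by DESeq2, 1 by limma on log2(RPKM + 0.1), 8 with only the 4 libraries of that time, and 0 to 3 with 1 library left out. At 48 h it was 22, against 89 by DESeq2, 10 without the filter on counts, 35 by limma on log2(RPKM + 1) without a filter, and 5 to 18 with 1 library left out. For the difference it was 0, against 55 by DESeq2, 23, 13 and 26 by limma on log2(RPKM + 1), log2(RPKM + 0.1) and without a filter, and 0 to 3 with 1 library left out. For the average it was 6, against 56 by DESeq2 and 32, 17 and 29 by limma in that order. For time in solvent it was 23, against 122 by DESeq2, 1, 1 and 2 by limma, 13 without the filter on counts, and 0 to 29 with 1 library left out. For time in curcumin it was 52, against 197 by DESeq2, 32 and 24 by limma on log2(RPKM + 1) and log2(RPKM + 0.1), 22 without the filter on counts, and 0 to 64 with 1 library left out. DESeq2 gave no adjusted p for 8 of the 18 gene results. A lone library left in a group is assumed to vary like the other groups. With 31.5 reads over all libraries, phospholipase A2 is limited by depth.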
